A study of Mus musculus with 2 samples.

Results

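Neutrophils low in interferon-induced transcripts were picked out of droplet single-cell RNA counts of CD45+ leukocytes sorted from mouse tumours. A filtered barcode (at least 200 genes and at most 10% mitochondrial UMIs) was a member when it met 5 conditions, so members were chosen by measured UMIs (counted molecules) of these genes, which are described here without a test. Cxcr2 and Csf3r together had at least 1 UMI, and Retnlg, G0s2, Cxcr2 and Csf3r together at least 4. S100a8 and S100a9 together reached at least 50 UMIs per 10000. The macrophage genes C1qa, C1qb, C1qc and Csf1r and the T cell genes Cd3d, Cd3e and Cd3g together had at most 1. Finally, Ifit1, Ifit2, Ifit3, Ifit3b and Rsad2, which interferons induce, stayed under 20 UMIs per 10000. The rule found 452 members among 36259 filtered barcodes, 200 of 15844 in the Ythdf2 KO library and 252 of 20415 in the WT library. Another 720 Ythdf2 KO and 324 WT barcodes met the first 4 conditions and had 20 or more such interferon UMIs per 10000, and are called interferon-high neutrophils here.

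The Ythdf2 KO library came from CD45+ leukocytes of tumours labelled Ythdf2-KO, and the WT library from those of WT tumours, both in C57BL/6 mice. Tumours were digested with collagenase and DNase and freed of red cells before the sort. The labels speak of knockout tumours, the series' title of a role within the tumour and its design text of conditional knockout mice, so the cells that lost Ythdf2, the driver of the deletion, the tumour type, the animals' age and the number pooled are not given in the sources used here. With 1 library per genotype there is no replicate, no test and no p-value. Intervals cover counting error only, at 95%, and called means at least 1.5-fold.

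Neutrophils are short-lived phagocytes that leave the bone marrow packed with granule proteins. They make these proteins in order while they mature, first the primary, then the secondary (lactoferrin, lipocalin) and then the tertiary granules (gelatinase), and granule transcripts fade as a cell ages. In tumours, neutrophils can also make chemokines such as Ccl3 and Ccl4 and respond to interferons and low oxygen. Ythdf2 encodes a cytoplasmic protein that binds N6-methyladenosine in mRNA and promotes its decay.

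Promoter sequence is shown for genes that carry the contrasts described below, as the 250 bases upstream of the RefSeq start (GRCm38.p6), 5′ to 3′ along the gene. The set was chosen after the values were seen. For the granule and neutrophil genes the capitals mark TTGCNNAA, on either strand, a form of the C/EBP motif. This motif stood in 7 of 9 such genes with an entry (Lcn2, Ly6g, Mmp8, Ngp, Retnlg, S100a9 and Stfa1, but neither S100a8 nor Cd177), against 9.56% of all 32851 promoters searched. Here and below a gene counted when any of its entries matched, while shares over all promoters are per entry. Ly6g had another entry without the motif. Retnlg, S100a8 and S100a9 are genes of the rule. Other genes lower in Ythdf2 KO members, such as Lyz2, Cybb, Wfdc17, Hp and Trem1, were not in the set.
Ngp, chr9:110419558-110419807, plus strand: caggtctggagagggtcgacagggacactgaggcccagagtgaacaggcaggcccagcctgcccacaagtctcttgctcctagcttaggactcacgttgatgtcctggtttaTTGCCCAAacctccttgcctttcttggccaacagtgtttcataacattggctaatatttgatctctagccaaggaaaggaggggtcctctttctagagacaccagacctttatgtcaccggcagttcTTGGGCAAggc
Lcn2, chr2:32387740-32387989, minus strand: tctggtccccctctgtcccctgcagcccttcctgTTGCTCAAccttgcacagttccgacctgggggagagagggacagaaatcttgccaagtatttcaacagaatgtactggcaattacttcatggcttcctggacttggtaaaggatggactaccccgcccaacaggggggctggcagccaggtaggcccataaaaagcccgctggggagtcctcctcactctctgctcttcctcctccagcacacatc
Mmp8, chr9:7558179-7558428, plus strand: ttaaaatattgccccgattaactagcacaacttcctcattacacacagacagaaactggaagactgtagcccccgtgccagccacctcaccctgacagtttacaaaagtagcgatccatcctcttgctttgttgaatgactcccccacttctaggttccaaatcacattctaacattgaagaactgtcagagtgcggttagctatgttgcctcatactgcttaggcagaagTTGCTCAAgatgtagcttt
Retnlg, chr16:48872358-48872607, plus strand: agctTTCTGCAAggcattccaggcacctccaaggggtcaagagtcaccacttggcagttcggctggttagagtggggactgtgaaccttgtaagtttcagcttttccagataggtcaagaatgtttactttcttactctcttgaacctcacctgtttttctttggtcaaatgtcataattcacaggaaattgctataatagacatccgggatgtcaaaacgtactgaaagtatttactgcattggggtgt
For the genes that were lowest relative to interferon-high neutrophils the capitals mark GAAA, any 2 bases and GAAA again, on either strand, a core form of the interferon-stimulated response element. It stood in 6 of 9 (Gbp5, Ifit1, Ifit1bl1, Ifit3, Ifit3b and Rsad2), against 2.98% of all promoters. Of these 6, Ifit1, Ifit3, Ifit3b and Rsad2 are genes of the rule, so the count in part restates the choice of members.
Ifit3, chr19:34583279-34583528, plus strand: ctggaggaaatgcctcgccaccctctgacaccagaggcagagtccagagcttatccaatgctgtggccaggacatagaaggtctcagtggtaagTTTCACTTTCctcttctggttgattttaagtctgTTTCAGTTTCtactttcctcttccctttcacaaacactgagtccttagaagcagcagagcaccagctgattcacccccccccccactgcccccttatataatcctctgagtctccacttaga
Gbp5, chr3:142496684-142496933, plus strand: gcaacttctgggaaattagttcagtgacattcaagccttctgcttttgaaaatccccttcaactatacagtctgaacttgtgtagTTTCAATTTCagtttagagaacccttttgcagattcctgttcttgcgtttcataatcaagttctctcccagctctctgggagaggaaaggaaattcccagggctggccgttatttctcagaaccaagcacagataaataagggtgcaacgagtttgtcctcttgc
Rsad2, chr12:26456453-26456702, minus strand: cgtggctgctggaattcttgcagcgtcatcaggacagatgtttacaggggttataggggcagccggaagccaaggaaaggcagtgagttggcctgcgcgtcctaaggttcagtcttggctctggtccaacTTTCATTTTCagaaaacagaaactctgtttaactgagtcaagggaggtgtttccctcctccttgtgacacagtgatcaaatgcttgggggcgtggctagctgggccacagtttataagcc
None of the first 9 genes held the interferon motif and none of the second 9 the C/EBP motif; a match describes the sequence alone.

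All 10 neutrophil markers were detected in both libraries, but 6 of them (S100a8, S100a9, Retnlg, Cxcr2, Csf3r and G0s2) are genes of the rule and give nearly all of the UMIs. The other 4 were Ngp, Mmp9, Il1r2 and Trem1. Barcodes with at least 3 Cd3 UMIs and no UMI of C1qa, C1qb, C1qc, Csf1r, Cxcr2 or Csf3r are called T barcodes. These 539 and 688 barcodes, with median depths of 4998 and 5121 UMIs, serve as a rough comparison for RNA outside its own cells. Barcodes with Cxcr2 or Csf3r RNA were left out of them, so low shares of neutrophil genes there are in part built in. A share in T barcodes can also be RNA of the T cells' own, and the 2 were not told apart. With each barcode thinned to 500 UMIs, Mmp9 had a UMI in 29.0% of Ythdf2 KO members and 40.1% of WT members, but in 0% and 0.291% of the T barcodes. Trem1 had one in 43.0% and 48.0% of members, and in 0.186% and 0.291% of the T barcodes. Primary granule genes were near 0: Mpo and Elane had no UMI in either library, and none of the 6 genes of that list in the files reached a mean of 50 CPM (UMIs per 1000000). Of the secondary granule genes, Camp had 1 UMI in Ythdf2 KO members and 0 in WT members, and Ltf had 0 and 2. Ngp, one of the label's markers, had a UMI in 5.0% of Ythdf2 KO members and 12.7% of WT members without thinning, so it marked a minority. Eosinophil markers gave 2 and 7 UMIs in all. Ythdf2 itself had 21 UMIs (31.8 CPM) in the Ythdf2 KO members and 16 (18.9 CPM) in the WT members. Its ratio of 1.68 had an interval of 0.835 to 3.44, and without the second-lineage members described below it was 5.21. In all other filtered barcodes Ythdf2 stood at 46.2 CPM in the Ythdf2 KO library and 48.6 CPM in the WT library. These values check no label, since neither the deleted part nor the deleted cells are given.

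Members were shallow, with a median of 2003.5 UMIs and 680.5 genes in the Ythdf2 KO library and 2412 UMIs and 767 genes in the WT library (all filtered barcodes: 5753 and 5674 UMIs). They held 660112 and 844799 UMIs in all. A few deep barcodes weigh heavily in these sums, as 28 Ythdf2 KO and 33 WT members over 5000 UMIs held 47.7% and 38.5% of them. The 5 NK cell markers (Ncr1, Klrb1c, Gzma, Nkg7 and Prf1) stood at 2624 CPM in Ythdf2 KO members and 3323 CPM in WT members, against 416 and 597 CPM in interferon-high neutrophils. More than 2 UMIs of T, NK, B, dendritic or mast cell markers were found in 20 Ythdf2 KO members (35.5% of their library's member UMIs) and 27 WT members (30.0%). Ratios without these second-lineage members, and with each barcode given equal weight, stand beside pooled ratios below where they matter, and the part of other-cell RNA in any difference was not tested. T cell markers gave 7 and 21 UMIs, B cell markers 2 and 0, and the 8 macrophage markers 380 and 482 CPM (all filtered barcodes: 3302 and 4087 CPM). The libraries share 101 barcode sequences, which include 3 Ythdf2 KO members and 1 WT member. Red cell and platelet markers gave 629 and 165 CPM, mostly Pf4, and tumour or stroma markers 97.0 and 10.7 CPM. No doublets were removed, and 16 Ythdf2 KO and 11 WT members lay among the 8% highest Scrublet doublet scores of their library.

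Members made up a similar small share of both libraries, while their share among neutrophils differed. They were 1.26% (1.09 to 1.45) of filtered Ythdf2 KO barcodes and 1.23% (1.09 to 1.40) of filtered WT barcodes. The difference of 0.028 percentage points had no settled sign, ranging from -0.042 to 0.223 over the settings tried. Among neutrophils of either interferon level they were 21.7% (19.1 to 24.6) in the Ythdf2 KO library and 43.8% (39.7 to 47.9) in the WT library. That difference was -22.0 points, and between -26.8 and -18.0 over the settings. Interferon-high neutrophils were 4.54% of filtered Ythdf2 KO barcodes and 1.59% of filtered WT barcodes. The members' lower share among Ythdf2 KO neutrophils was thus not a lower share of all filtered barcodes. The median depths of members and interferon-high neutrophils were close within each library (2003.5 and 1990.5 UMIs in Ythdf2 KO, 2412 and 2282.5 in WT). The interferon genes chose the classes, so these shares describe the libraries and are not a test.

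Genes at a mean of at least 50 CPM over both libraries numbered 2220. Of these, 239 (10.8%) were at least 1.5-fold higher and 128 (5.77%) at least 1.5-fold lower in Ythdf2 KO members. S100a8 and S100a9 alone took 9.35% of the UMIs of Ythdf2 KO members and 15.5% of those of WT members, which moves every other CPM. Leaving them out of the totals gave 185 higher and 225 lower genes, and moved the median log2 ratio of all genes from 0.09 to -0.01. Of the 239 higher genes, 145 were past the fold with equal weights and 192 without second-lineage members. Another 2 exclusions (macrophage, monocyte, red cell, platelet and tumour markers as well, or members over 5000 UMIs) kept 128 and 165, and 109 genes passed under all 4 settings. Of the 128 lower genes, 78, 86, 62 and 69 were past the fold, and 42 under all 4. Over all genes tested, these settings called 10.5%, 17.1%, 16.2% and 16.8% higher and 5.87%, 6.32%, 8.04% and 5.69% lower. In interferon-high neutrophils 27 of 2129 genes (1.27%) were called higher and 104 (4.88%) lower, and 15 of the 239 and 12 of the 128 genes were called there in the same direction.

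Several granule transcripts were lower in the Ythdf2 KO members. Of the 11 genes of the secondary granule list 7 were measured, and 5 of them were called lower (Ngp, Lcn2, Cd177, Lyz2 and Cybb), none higher, with a median log2 ratio of -0.66 against 0.09 over all genes (-1.36 to -0.38 over the settings; Cybb was 0.392 without second-lineage members). Of the 8 measured genes of the tertiary granule and protease list, 3 were called lower (Mmp8, Mmp9 and Stfa1) and none higher, with a median of -0.28. Both counts stand beside 5.77% lower and 10.8% higher over all genes. In interferon-high neutrophils 4 of the same 7 and 2 of the same 8 genes were at least 1.5-fold lower, and none higher. Of all 2220 genes, 92 were lower and 34 higher there. The list medians there were -0.84 and -0.14, against -0.05 over all genes, so lower granule transcripts were not particular to the members. Lcn2, a siderophore-binding lipocalin, had 1091 CPM in Ythdf2 KO members and 3037 CPM in WT members. Its ratio was 0.359 (0.330 to 0.390), 0.392 without second-lineage members, and 0.558 in interferon-high neutrophils. Mmp8, the neutrophil collagenase, had 217 and 629 CPM, a ratio of 0.345 (0.285 to 0.415), and 0.479 in interferon-high neutrophils. Over the settings tried, Lcn2 ranged from 0.278 to 0.448 and Mmp8 from 0.288 to 0.448.

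Rarer granule and surface transcripts showed still lower ratios. Ngp, a cathelicidin-like granule protein, had 34.8 CPM in Ythdf2 KO members and 143 CPM in WT members. Its ratio of 0.243 (0.149 to 0.382) rests on 23 and 121 UMIs, ranged from 0.0633 to 0.357 over the settings, and was 0.189 in interferon-high neutrophils. Cd177, a surface protein of neutrophil granules, had 22.7 and 88.8 CPM, a ratio of 0.256 (0.137 to 0.450) from 15 and 75 UMIs. Ly6g, the antigen by which mouse neutrophils are sorted, had 83.3 and 270 CPM, a ratio of 0.309 (0.226 to 0.416). Over the settings tried these ratios stayed below 1, between 0.212 and 0.276 for Cd177 and between 0.199 and 0.524 for Ly6g. Stfa1, a stefin protease inhibitor with near-identical neighbours that can share reads, had 63.6 and 285 CPM, a ratio of 0.223, while its share of members with a UMI after thinning was 3.5% and 3.57%. The related Stfa2l1, of the same list, went the other way, with ratios of 1.13 to 1.72 over the settings. Mmp9, the gelatinase of tertiary granules, had 512 and 850 CPM, a ratio of 0.603 (0.528 to 0.687).

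Some other abundant genes of mature neutrophils were lower too, but not all. Retnlg, a resistin-like secreted protein and a gene of the rule, had 5472 CPM in Ythdf2 KO members and 12780 CPM in WT members, a ratio of 0.428. S100a8 and S100a9 encode the subunits of calprotectin and were also used by the rule. S100a8 had 36580 and 64520 CPM (0.567), and S100a9 had 56890 and 90530 CPM (0.628), against 0.952 and 1.04 in interferon-high neutrophils. Wfdc17, a secreted antiprotease-like protein, had 2707 and 6347 CPM (0.427, 0.404 to 0.450). The haemoglobin scavenger gene Hp had 791 and 1373 CPM (0.576), and Trem1, which amplifies inflammatory signals, 811 and 1325 CPM (0.612). Trem1 stands in a list of 14 measured pattern and Fc receptor genes, of which 2 were called lower and none higher. Clec4d and Clec4e of that list ranged from 0.936 to 1.15 and from 0.941 to 1.24 over the settings. G0s2, also a gene of the rule, was not lower, with ratios of 1.10 to 1.62 over the settings. Of the 6 NADPH oxidase genes, which make superoxide, Rac2 (0.666) and Cybb (0.652) were called lower and none higher, with a median log2 ratio of -0.44. The shares over all genes were 5.77% lower and 10.8% higher. Under at least 1 setting S100a9, Mmp9, Lyz2, Cybb, Hp, Trem1 and Rac2 were no longer 1.5-fold lower, with highest ratios of 0.737 to 0.851.

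**Figure D1:**
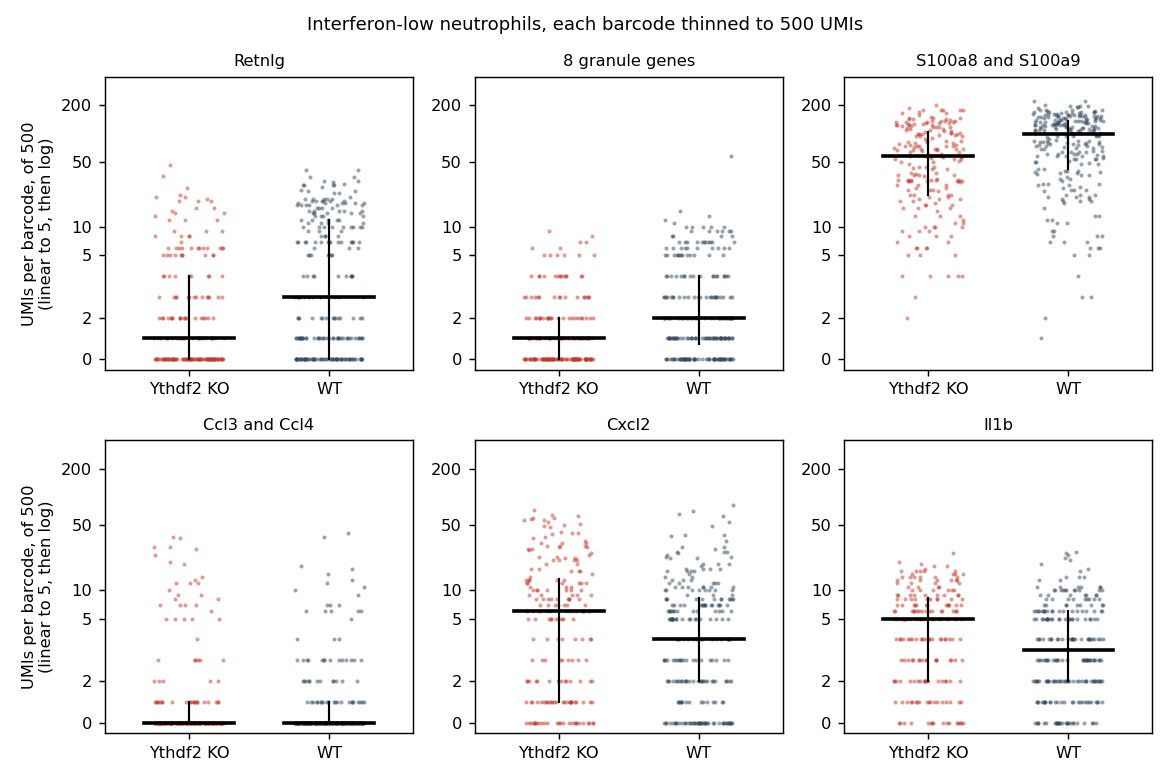
UMIs per member barcode after thinning each to 500 UMIs, for Ythdf2 KO (left, 200 members) and WT (right, 252 members), on an axis that is linear to 5 and logarithmic above. Thick lines are medians and thin lines span the quartiles; the medians are 1 and 3 for Retnlg, 1 and 2 for the 8 granule genes (Ngp, Camp, Ltf, Lcn2, Mmp8, Mmp9, Cd177 and Ly6g), and 58 and 97.5 for S100a8 with S100a9.

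The differences were seen barcode by barcode at equal depth. Any of the 8 granule genes had a UMI in 56.5% of thinned Ythdf2 KO members and 75% of WT members. Lcn2 had one in 40.5% (33.6 to 47.7) and 55.6% (49.2 to 61.8), and Mmp8 in 9.5% (5.82 to 14.4) and 24.6% (19.4 to 30.4). T barcodes, which by definition hold no Cxcr2 or Csf3r UMI, reached at most 0.291% for either gene. The members of the libraries overlapped widely: 0 to 46 Retnlg UMIs of 500 were found in Ythdf2 KO and 0 to 41 in WT. The 8 granule genes together had 0 to 9 UMIs in Ythdf2 KO and 0 to 57 in WT, where the next highest barcode had 15.

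Genes of neutrophil trafficking differed less between the libraries. Of the 15 measured maturation and trafficking genes, none was called in either direction, beside 10.8% higher and 5.77% lower over all genes, with a median log2 ratio of -0.05. Without members over 5000 UMIs, 2 of the 15 were called higher, beside 427 of 2220 genes. Csf3r, the receptor for G-CSF, had 914 CPM in Ythdf2 KO members and 1018 CPM in WT members (0.897, 0.807 to 0.997). The chemokine receptor Cxcr2 had 562 and 772 CPM (0.728), and Cxcr4, which holds neutrophils in the marrow, 229 and 180 CPM (1.27). Csf3r and Cxcr2 are genes of the rule. None of the 14 measured neutrophil transcription factors was called, nor any of 10 survival genes or 7 interleukin 1 and inflammasome genes, and lists this short hold few calls at the share over all genes. Without second-lineage members, 2 survival genes were called higher and 1 lower, and 1 transcription factor higher, beside 413 higher and 158 lower of 2220 genes. Il1b, the most abundant cytokine transcript of that list, had 7841 and 6615 CPM (1.19, 1.14 to 1.23).

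Some transcripts of the chemokine list were higher in the Ythdf2 KO members, with limits for Ccl4 and Cxcl10 that are given below. Of 10 measured chemokine-list genes 4 were called higher (Ccl3, Ccl4, Ccrl2 and Cxcl10) and none lower, beside 10.8% and 5.77% of all genes. The list's median log2 ratio was 0.49, against 0.09 over all genes. Ccl3, an inflammatory chemokine, had 1733 CPM in Ythdf2 KO members and 806 CPM in WT members. Its ratio was 2.15 (1.95 to 2.37), 1.95 without second-lineage members and 1.14 in interferon-high neutrophils. Its neighbour on chromosome 11, Ccl4, had 2309 and 1522 CPM (1.52, 1.41 to 1.64), with 1.24 when macrophage and the other myeloid markers are excluded too, and 0.868 in interferon-high neutrophils. Ccrl2, an atypical receptor that binds chemerin, had 1579 and 771 CPM, a ratio of 2.05 (1.86 to 2.26).

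After thinning, Ccl3 had a UMI in 21.0% (15.6 to 27.3) of Ythdf2 KO members and 13.9% (9.87 to 18.8) of WT members. The same shares in T barcodes, which were deeper before thinning, were 7.24% and 4.36%. Whether these and the T barcode shares below are stray RNA or RNA of the T cells' own was not tested. For Ccl4 the share was 23.5% (17.8 to 30.0) in Ythdf2 KO members and 23.4% (18.3 to 29.1) in WT members, with 18.7% and 14.4% of T barcodes, so its higher CPM was not matched by more members with a UMI. Ccrl2 was seen in 54.5% (47.3 to 61.5) and 32.1% (26.4 to 38.3), against 5.75% and 4.65% of T barcodes. Cxcl2, a ligand of Cxcr2 and the most abundant chemokine, had 16250 and 12060 CPM, a ratio of 1.35 that was 1.54 with equal weights. Cxcl10, which draws T cells through Cxcr3 and is itself induced by interferons, had 241 and 93.5 CPM (2.58, 1.96 to 3.42). However, the share of members with a Cxcl10 UMI was 9.5% and 4.37%, below that in T barcodes (12.8% and 12.9%), so no difference is read from it. In members with no UMI of the 5 interferon genes, Cxcl10 had 639 CPM in Ythdf2 KO and 48.6 CPM in WT. At over 0 to under 10 such UMIs per 10000 it had 144 and 89.8 CPM. The order turned at 10 to under 20, with 138 CPM in Ythdf2 KO and 161 CPM in WT.

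Some immediate early and stress transcripts were also higher. Of the 22 immediate early and stress genes, 6 were called higher (Fos, Jun, Atf3, Klf2, Hspa1b and Hsp90ab1) and none lower. Over all genes 10.8% were called higher and 5.77% lower. The list's median log2 ratio was 0.28, against 0.09 over all genes. In interferon-high neutrophils none of the 22 was at least 1.5-fold higher and 1 was lower (34 and 92 of the 2220 genes), with a median of -0.05. Jun, a subunit of the AP-1 transcription factor, had 1130 CPM in Ythdf2 KO members and 475 CPM in WT members. Its ratio was 2.38 (2.11 to 2.70), 3.18 without second-lineage members and 1.03 in interferon-high neutrophils. Atf3 had 783 and 408 CPM (1.92, 1.67 to 2.20), and Fos 2830 and 1880 CPM (1.51, 1.41 to 1.61). Zfp36, which promotes decay of cytokine mRNAs, had 1542 and 947 CPM (1.63, 1.48 to 1.79). It is not of this list but of an NF-kB feedback list. Of the 14 measured genes there, 2 were called higher and none lower, with a median log2 ratio of 0.19. Hspa1b rests on 75 and 49 UMIs, ranged from 1.15 to 17.8 over the settings and can share reads with its near-identical neighbour Hspa1a.

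Hilpda, a lipid-droplet protein induced by low oxygen, had 703 CPM in Ythdf2 KO members and 362 CPM in WT members. Its ratio was 1.94 (1.68 to 2.25), and 3.09 without members over 5000 UMIs. It was the only one of 10 measured hypoxia genes past the fold, a share near that over all genes (10.8%). Without second-lineage members 4 of the 10 were at least 1.5-fold higher, but so were 413 of the 2220 genes. Hk2, a hexokinase, was the only one of 16 glycolysis genes past the fold in all members (129 and 73.4 CPM, 1.76). Ptgs2, which makes prostaglandin precursors, had 788 and 485 CPM (1.62, 1.42 to 1.85), close to its 1.51 in interferon-high neutrophils. Of 13 measured genes of a tumour-associated neutrophil list, 6 were called higher (Ccl3, Ccl4, Ctsb, Hmox1, Hilpda and Tnf) and none lower. This stands beside 10.8% and 5.77% of all genes. The list's median log2 ratio was 0.53, against 0.09 over all genes. Ccl3, Ccl4 and Hilpda also stand in the lists above. With myeloid, platelet and tumour markers excluded too, 4 were higher and the median was 0.31, beside 394 of the 2220 genes and 0.08. In interferon-high neutrophils 1 of the 13 was at least 1.5-fold higher and 3 lower, with a median of -0.20. Of the 2220 genes, 34 were higher and 92 lower there, with a median of -0.05. Tnf, an inflammatory cytokine at 92.4 and 56.8 CPM (1.63), was 0.988 when the interferon limit was set at 30. Cd274, which encodes PD-L1, had 162 and 127 CPM (1.28, 0.970 to 1.69) and Siglecf 1 and 7 UMIs.

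Of the 30 measured type I interferon genes outside the rule, 5 were called higher in Ythdf2 KO members (among them Ifi27l2a, Oasl2, Slfn4 and Gbp2) and none lower, beside 10.8% and 5.77% of all genes. Their median log2 ratio was 0.31, against 0.09 over all genes. Without second-lineage members 10 of the 30 were called higher, beside 413 of the 2220 genes. Ifi27l2a, an interferon-induced mitochondrial protein, had 3022 CPM in Ythdf2 KO members and 1629 CPM in WT members (1.86, 1.73 to 1.99). In interferon-high neutrophils it had 6472 and 4035 CPM, but after thinning 53.4% and 55.7% of T barcodes held a UMI too. Isg15, a ubiquitin-like interferon product, had 856 and 779 CPM. Ifit1, a gene of the rule that binds foreign RNA, had 174 and 121 CPM. Under at least 1 setting Atf3, Fos, Klf2, Hsp90ab1, Hilpda, Hk2, Ctsb, Hmox1, Slfn4 and Gbp2 were under 1.5-fold, with lowest ratios of 1.03 to 1.48.

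**Figure D2:**
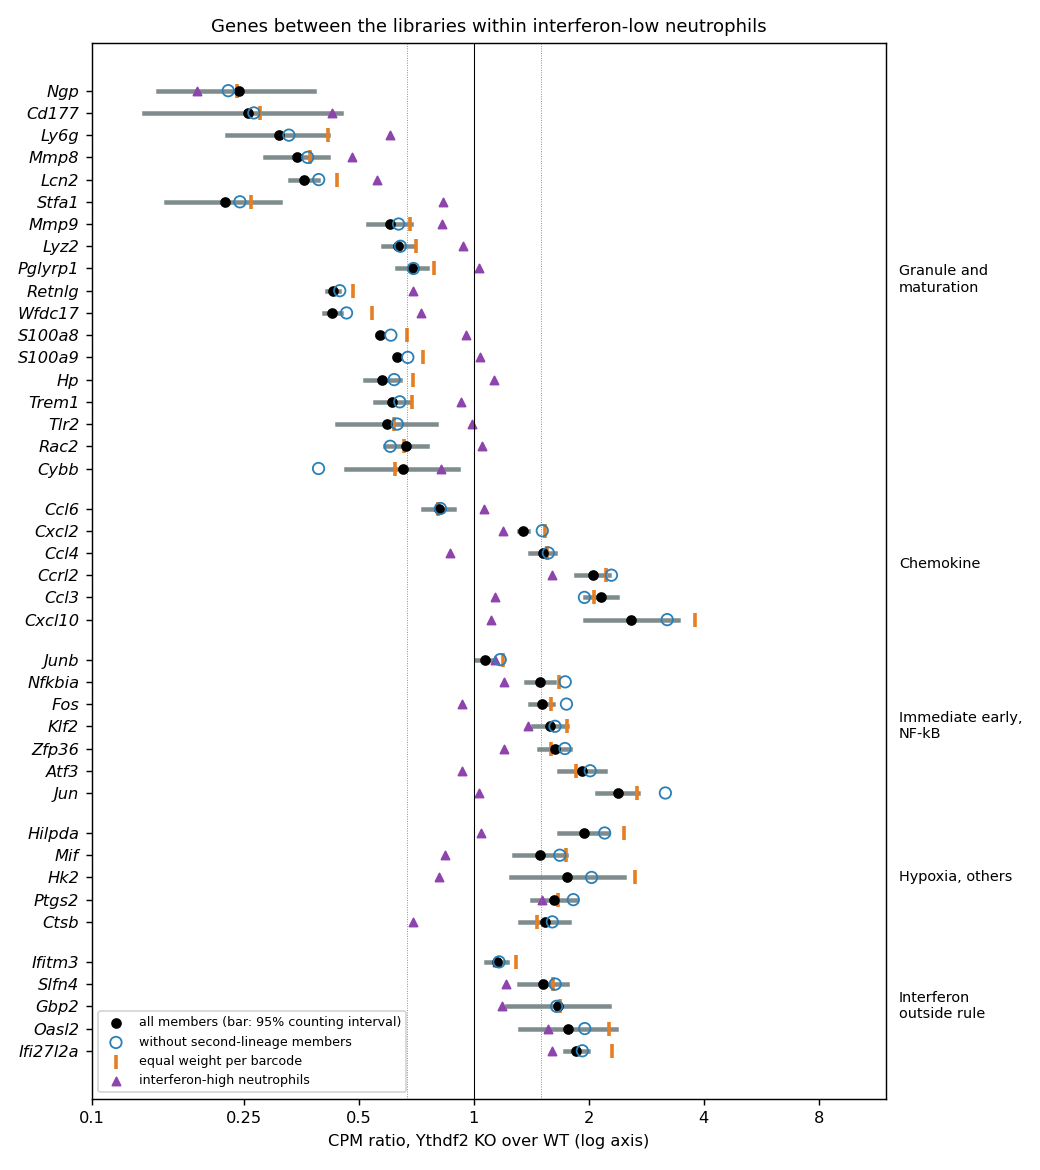
CPM ratios of Ythdf2 KO over WT within the members on a log axis, for 41 genes in 5 groups (black points, with bars for the 95% counting interval), without second-lineage members (open circles), with equal weight per barcode (orange ticks), and in interferon-high neutrophils (purple triangles). Dotted lines mark 1.5-fold; Lcn2 at 0.359, Mmp8 at 0.345 and Ngp at 0.243 lie below them and Ccl3 at 2.15 and Jun at 2.38 above them.

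**Figure D3:**
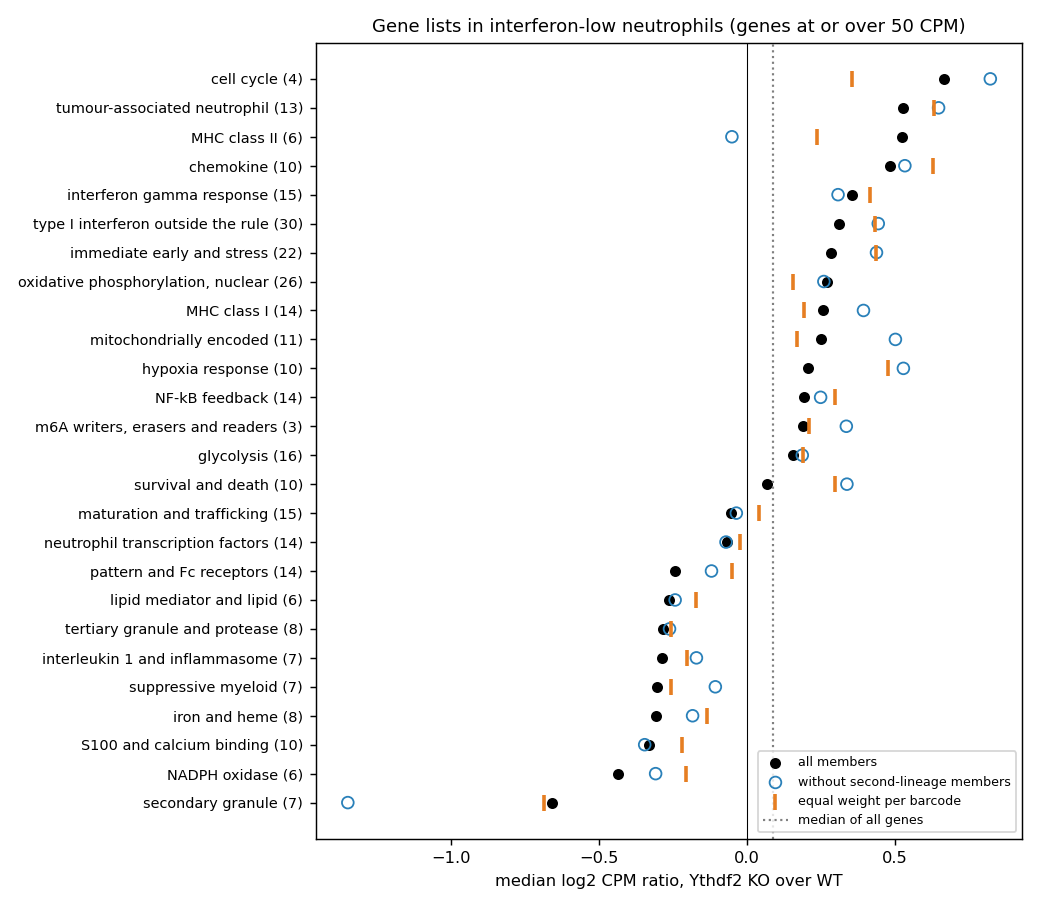
Median log2 CPM ratio of Ythdf2 KO over WT for each gene list with at least 3 measured genes (number in brackets), over all members, without second-lineage members and with equal weight per barcode. The secondary granule list is lowest at -0.66, tumour-associated neutrophil and chemokine genes stand at 0.53 and 0.49, and the dotted line is the median of all 2220 genes at 0.09.

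The 10 highest and 10 lowest ratios of the naming rule were a mixture of neutrophil genes and genes of other lineages. The lowest were Apoe, Stfa1, Ngp, Ccl5, Cd177, Ly6g, Mmp8, Lcn2, Klra7 and Txnrd1. Of these, Ccl5 (0.252, but 0.798 without second-lineage members) and Klra7, an NK receptor with no UMI in the Ythdf2 KO members that remain, rest on second-lineage members. Apoe, a lipid carrier of macrophages, had 30.3 CPM in Ythdf2 KO members and 201 CPM in WT members (0.151), but its thinned shares of 1.0% and 6.35% were close to those of T barcodes (1.48% and 5.81%), so no difference is read from them. The highest were Gzmf, Klk1, Pf4, Ybx3, Hspd1, Blvrb, Cxcl10, Tbrg1, Ncr1 and Maf. Gzmf, a granzyme of activated NK and T cells, had 1342 and 141 CPM (9.53) but a ratio of 0.569 without second-lineage members. Pf4, Ybx3 and Hspd1 stood at 3.67, 2.90 and 2.83 but at 1.29, 1.08 and 1.08 when myeloid, platelet and tumour markers were excluded too. Prok2, a secreted chemoattractant also called Bv8, was below the floor of 50 CPM and is named after its values were seen. It had 4 UMIs (6.06 CPM) in Ythdf2 KO members and 63 (74.6 CPM) in WT members, a ratio of 0.0813 (0.0215 to 0.219), and 0.284 in interferon-high neutrophils.

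For Retnlg, S100a8, Ccl3 and Jun the libraries differed more among neutrophils with no interferon UMI than among those with the most. Neutrophils were placed in 6 bins by their UMIs of the 5 interferon genes per 10000, from 0 to 60 and over, and no test was made since the bins rest on the rule. At 0 (68 Ythdf2 KO and 104 WT barcodes), Retnlg had 7897 CPM in the Ythdf2 KO library and 17560 CPM in the WT library. At 60 and over (522 and 204 barcodes), it had 3554 and 5049 CPM. Just inside the limit, at 10 to under 20 (49 and 54 barcodes), Retnlg had 4896 and 8778 CPM, and just outside, at 20 to under 30 (62 and 40 barcodes), 5638 and 6733 CPM. In WT, then, each bin had less Retnlg than the one before it, except that with equal weight per barcode the first 2 bins were close (14740 and 14880 CPM). The Ythdf2 KO values were lower throughout and less ordered.

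S100a8 had 56040 CPM in Ythdf2 KO and 92960 CPM in WT at 0, and 34630 and 37230 CPM at 60 and over. Between these bins its course was less even than that of Retnlg. In WT it had 51450 CPM at over 0 to under 10 and 55690 CPM at 10 to under 20. Just outside the limit the Ythdf2 KO value was the higher one, with 40550 CPM against 38370 CPM in WT. The chemokine Ccl3 and the AP-1 gene Jun ran the other way in WT. At 0, Ccl3 had 1780 CPM in Ythdf2 KO and 380.5 CPM in WT, and at 60 and over 3438 and 3059 CPM. Jun had 1058 CPM in Ythdf2 KO and 219 CPM in WT at 0, and 1294 and 1168 CPM at 60 and over. For Ccl3 the order turned just outside the limit, with 1349 CPM in Ythdf2 KO and 2216 CPM in WT. Barcodes in the 0 bin were shallower in Ythdf2 KO (median 1599 UMIs) than in WT (2181 UMIs), and the part of depth in which barcodes reach 0 was not tested. With equal weight per barcode the Ccl3 values at 0 were 2159 and 488 CPM.

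**Figure D4:**
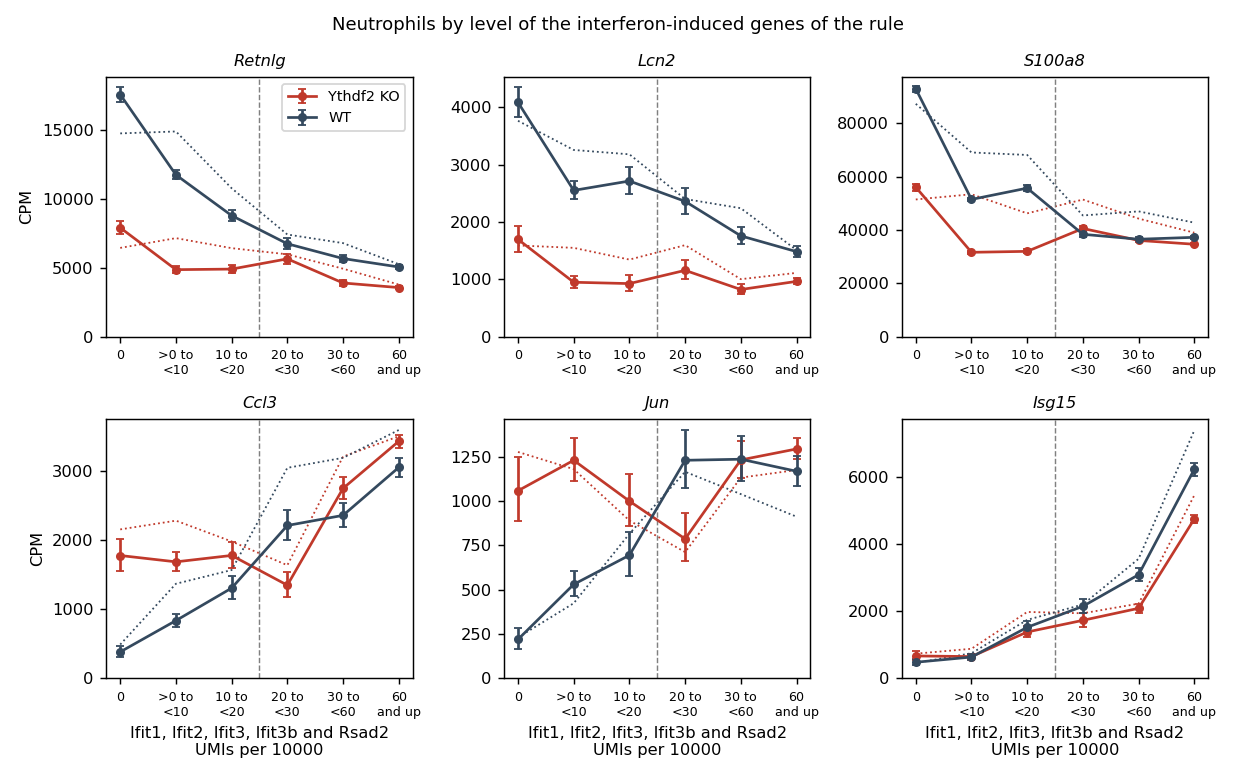
CPM of 6 genes in neutrophils of both interferon levels, binned by the UMIs of Ifit1, Ifit2, Ifit3, Ifit3b and Rsad2 per 10000, for Ythdf2 KO (red) and WT (dark); bars are 95% Poisson intervals, dotted lines give each barcode equal weight, and the dashed line is the limit of 20. Retnlg, Lcn2 and S100a8 are highest in WT barcodes at 0, and Ccl3 and Jun are lowest there.

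After thinning, Ccl3 was seen less often in members with a UMI of the granule gene Lcn2 than in members without one. In Ythdf2 KO members it had a UMI in 14.8% of the 81 with Lcn2 and 25.2% of the 119 without. In WT members these shares were 9.29% of 140 and 19.6% of 112. All shares come from the same 500 UMIs per barcode, and the difference was not tested. Split by Retnlg, which is a gene of the rule, Ccl3 had a UMI in 12.1% of the 116 Ythdf2 KO members with it and 33.3% of the 84 without, and in 9.09% of 187 and 27.7% of 65 in WT.

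Relative to interferon-high neutrophils, members had less of the interferon programme as a whole, which follows from the rule. Of 2193 genes at a mean of 50 CPM, 251 (11.4%) were at least 1.5-fold lower in both libraries and 129 (5.88%) at least 1.5-fold higher. The lowest were Ifit1, Ifit2, Ifit3, Ifit3b and Rsad2 of the rule, with Cmpk2, Gbp5, Ifit1bl1, Trim30c and the antibody gene Igkc (0 UMIs in Ythdf2 KO members and 12 in WT members). Cmpk2, a mitochondrial nucleotide kinase next to Rsad2, had 34.8 CPM in Ythdf2 KO members against 481 CPM in interferon-high ones, and 33.1 against 479 CPM in WT. Of the 30 measured type I interferon genes outside the rule, 27 were lower in both libraries. So were 7 of the 10 chemokine-list genes, Ccl4 at 0.383 of the interferon-high level in Ythdf2 KO and 0.219 in WT.

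The genes highest in members over interferon-high neutrophils were mostly granzymes and their partners (Gzma, Gzmb, Gzmc, Gzmd, Gzme, Gzmg, Prf1, Ctsw and Ctla2b). Without second-lineage members 63 of 2080 genes (3.03%) were at least 1.5-fold higher in both libraries, and 217 (10.4%) lower. Among the highest of the 63 were Ngp, Bmx, Cpd, Actn1, Arid3a, Sephs2, R3hdm4, Hmgn2 and Hdac4, named after the values were seen. Ngp was 6.77-fold higher than in interferon-high neutrophils in Ythdf2 KO and 5.42-fold in WT. Bmx, a Tec-family kinase, was 2.46-fold and 2.76-fold higher. Retnlg, under the same exclusion, was 1.88-fold higher in Ythdf2 KO and 2.68-fold in WT, and Mmp8 1.75-fold and 2.0-fold.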

How the data were processed

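Raw UMI counts per gene and barcode were deposited, made by the authors from 10x Genomics 5′ libraries. Cell Ranger 5.0.1, Seurat 4.0.4 and mm10 are named per the submitters' processing notes, while Cell Ranger 6.1.1 stands in the matrices, per the file headers. UMIs were summed over members per library and scaled to CPM, with exact Poisson intervals for levels, exact conditional binomial intervals for ratios and Clopper-Pearson intervals for shares. These cover counting error only. Genes at a mean of at least 50 CPM were compared, and shares with a UMI were taken after thinning each barcode to 500 UMIs. Named by rule were the genes of the selection, the markers, the 10 most abundant genes, the 10 highest and 10 lowest ratios in each comparison (without mitochondrial, ribosomal protein and sex-linked genes and unnamed models), and, in each of 28 gene lists, genes past 1.5-fold and the 4 most abundant. A few genes that this rule names are not reported here. Members and lists were chosen with earlier results of these data known. The ratio code was tested on simulated data. Promoters came from RefSeq on GRCm38. Tools were Python 3.11.15 with scanpy 1.11.5 and pandas 2.3.3, scipy 1.17.1, numpy 2.4.6 and matplotlib 3.10.9.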

Additional observations from a re-analysis of the deposited data

Results flagged for a closer look

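For 7 named genes the Ythdf2 KO over WT ratio was past 1.5-fold in opposite directions in interferon-low and interferon-high neutrophils. This difference was not tested. Of all 239 genes called higher in interferon-low neutrophils, 134 had the opposite sign, at any size, in interferon-high ones. Of the 128 called lower, 40 did. Hmox1, a heme oxygenase, had a ratio of 1.64 in interferon-low and 0.429 in interferon-high neutrophils. Maf, a macrophage transcription factor, had 2.40 and 0.637. Pf4, a platelet chemokine that macrophages also make, had 3.67 and 0.419. The chaperonin Hspd1 had 2.83 and 0.634, the peroxidase Prdx2 1.97 and 0.645, and the replication clamp Pcna 1.58 and 0.533. The granzyme Gzmg had 0.593 and 1.68. In Ythdf2 KO members each of these 7 genes but Pf4, Gzmg and Hmox1 had under 100 UMIs. Over the settings tried, lowest interferon-low ratios were under 1.5-fold for Hspd1 (1.08), Maf (1.14), Pf4 (1.29), Pcna (1.29) and Hmox1 (1.34). Prdx2 ranged from 0.323 to 3.13 and Gzmg from 0.326 to 11.3. The part of other-cell RNA in these ratios was not tested.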

How the results depend on the processing

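No paired analysis was possible because each genotype is 1 library, so no replicate could be left out either. Of 178 named genes at the floor, 78 were past 1.5-fold between the libraries, and 19 of these changed sign under some setting; the cause was not tested. The 239 genes higher in Ythdf2 KO became 148 with an interferon limit of 30, 538 with no macrophage or T cell UMI, 735 at a floor of 20 CPM and 102 at 100 CPM. The 128 lower genes became 214 with no such UMI, 225 with CPM without S100a8 and S100a9, 333 at 20 CPM and 61 at 100 CPM. The 129 genes higher in interferon-low than interferon-high neutrophils became 194 at a limit of 30, 74 with no such UMI, 204 without S100a8 and S100a9 in the total, 83 with equal weights, 353 at 20 CPM, 72 at 100 CPM and 63 without second-lineage members. The cell cycle list had a median log2 ratio of -0.34 at 100 CPM. Without second-lineage members, log2 ratios were -1.33 for Ctsw, -0.78 for Gzmc, -0.89 for Gzme and -0.81 for Gzmf. With myeloid, platelet and tumour markers excluded as well, the cell cycle list stood at -0.38, Alkbh5 at -0.047, H2-DMa at -0.31, H2-T22 at -0.01, Npm1 at -1.36, Prdx2 at -1.63, S100a10 at -0.55, Steap4 at 0.056, Tuba1b at -1.18, Tubb5 at -0.63, Ctsw at -1.63, Gzmc at -0.56, Gzme at -0.81 and Gzmf at -0.90. Without members over 5000 UMIs, Arg1 stood at 2.45, Ctsw at -0.995, Gzmc at -0.59, Gzme at -0.66, Gzmf at -0.32 and Ncr1 at -0.63. With no macrophage or T cell UMI, Arg1 stood at 0.78 and Gzmg at 3.50. Gzma stood at 0.089 without the highest Scrublet scores, Klk1 at -2.26 under an interferon limit of 10 and at -0.20 with at least 100 S100 UMIs per 10000, and Tnf at -0.018 under a limit of 30. The Cd74 difference in share was -2.50 points at 1000 UMIs. Depth limits the rarer genes, as 0 members with a UMI allows, at 3 counts, a share with a UMI of up to 1.5% in Ythdf2 KO and 1.19% in WT, which limits members with a UMI and not members expressing the gene.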
